A study of Mus musculus with 8 samples.

Results

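A basement membrane is a thin sheet of extracellular matrix on which epithelial, endothelial, muscle and nerve cells rest. The set described here is 43 genes in all, listed by family, out of 45706 gene rows in the count table. Its members were chosen with earlier results of these data known. It holds 26 matrix genes, called ligands below, and 17 receptors. The ligands are laminin chains, type IV, XV and XVIII collagens, nidogens, the proteoglycan cores Hspg2 and Agrn, nephronectin and the Fraser complex genes. The receptors are the integrin chains, dystroglycan (Dag1) and Bcam. All 43 gene symbols were found in the table.

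RNA was sequenced from the livers of 4 C57BL/6 mice labelled HuR KO and 4 C57BL/6 mice labelled HuR WT, 1 library per mouse. HuR, an RNA-binding protein that binds AU-rich and U-rich stretches of mRNA, is the product of Elavl1. The deleted exons, the cells in which they were deleted, any Cre line, and the age of the mice are not given in the sources used here. KO and WT stand for the labels throughout, because the count of Elavl1 cannot check them. In CPM, TMM-scaled read counts set relative to library size, it read 49.4, 55.99, 49.1 and 45.6 CPM in KO livers, against 32.7, 45.7, 42.9 and 46.6 CPM in WT livers (log2 fold change 0.25, SE 0.11, adjusted p = 0.258, edgeR). Total gene counts lay between 18649618 and 31249286 per library. Animal numbers in the titles form a pair of series, with KO replicates 3 and 4 and WT replicate 3 numbered 98 to 100 and the others numbered with 4 digits, so the 98-to-100 series holds a single WT liver. What separates the series is not stated. Of the WT livers only replicate 3 was closer to the KO group than to its own: the root mean square of its log2 CPM differences over genes averaged 0.586 against KO livers and 0.597 against the other WT livers. The 10 hepatocyte markers summed to at least 119197 CPM in every library, so the liver label holds.

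Laminins are cross-shaped heterotrimers of 1 alpha, 1 beta and 1 gamma chain that form the first network of the sheet, and type IV collagen forms the second. Nidogens and the proteoglycan perlecan (Hspg2) tie both networks together. Integrins, each a pair of 1 alpha and 1 beta chain, dystroglycan and Bcam hold cells to the laminins. In the liver, bile ducts, vessels and nerves have a continuous basement membrane, whereas the sinusoids between hepatocytes lack one and carry a loose matrix.

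The type IV collagen genes lie in head-to-head pairs, and the promoter windows of Col4a1 and Col4a2 are shown because they share bases. Both genes rose in the libraries labelled KO, as did Col4a3 and Col4a4 (values below). In the deposited table the 5′ ends of Col4a1 and Col4a2 overlap on opposite strands of chromosome 8, with 22 exon bases in common, those of Col4a3 and Col4a4 on chromosome 1 lie 72 bases apart, and those of Col4a5 and Col4a6 on chromosome X lie 1309 bases apart. Each window runs 300 bases 5′ to 3′ on the gene's own strand in RefSeq's sequence of GRCm38.p6 (mm10), and the capitals mark the 78 bases that both windows hold, read on opposite strands.
Col4a1, chr8:11312777-11313076, minus strand: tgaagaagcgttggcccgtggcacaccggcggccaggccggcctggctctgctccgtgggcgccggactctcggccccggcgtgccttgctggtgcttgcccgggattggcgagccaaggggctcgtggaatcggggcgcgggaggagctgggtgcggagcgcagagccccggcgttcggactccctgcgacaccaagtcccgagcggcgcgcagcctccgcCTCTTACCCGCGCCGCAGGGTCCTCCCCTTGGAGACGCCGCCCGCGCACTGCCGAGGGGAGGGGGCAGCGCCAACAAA
Col4a2, chr8:11312555-11312854, plus strand: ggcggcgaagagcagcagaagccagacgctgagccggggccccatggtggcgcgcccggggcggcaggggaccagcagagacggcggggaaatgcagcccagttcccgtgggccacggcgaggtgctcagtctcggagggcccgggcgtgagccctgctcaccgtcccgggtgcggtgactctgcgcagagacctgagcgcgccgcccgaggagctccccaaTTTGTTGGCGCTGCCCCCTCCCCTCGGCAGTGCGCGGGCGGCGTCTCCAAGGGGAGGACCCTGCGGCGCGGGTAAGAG
Of the 43 members, 31 had at least 1 such window. The GC box GGGCGG, read on both strands, was present in a window of 20 of these 31 genes and in 35.7% of all 32851 windows of the same length. The CCAAT box (CCAAT) was found in 11 of the 31 and in 37.4% of all windows, CATTCC, the core letters bound by TEAD factors, in 6 of the 31 and in 14.7%, and TGACTCA, the AP-1 letters, in 1 of the 31 and in 5.2%. TATAAA, the TATA box, was in a window of 0 of the 31 genes and in 13.6% of all windows. Some genes have more than 1 window, so a share of genes and a share of windows are unlike measures, and none of these 5 motifs contains another. The GC box was in the windows of both Col4a1 and Col4a2, but the only match in the Col4a1 window lies in the shared bases and so counts for both genes. A match describes letters and is not a bound site.

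Of the fitted genes, 4 of 10 laminin chains, 5 of 6 type IV collagen chains, 1 of 9 linkers and other matrix genes, 1 of 8 integrin alpha chains, 2 of 6 integrin beta chains and Bcam rose in KO livers. In bulk tissue a difference in the number of cells of a type and one in RNA per cell cannot be told apart. Of the 43 members 41 passed the filter on low counts, and 14 of these rose and 0 fell at an adjusted p under 0.05 (edgeR's quasi-likelihood test with Benjamini-Hochberg adjustment over 14645 genes), which is 34.1% of those tested, against 3.69% of all genes tested, or 2.32% called higher and 1.37% called lower. Among the ligands 10 of 25 rose (40.0%), with a median log2 fold change of 0.58. Among the receptors 4 of 16 rose (25.0%), with a median of 0.29. The median over all genes tested was −0.0046. A member that passes the filter through its level in KO livers alone, as Lama3, Col4a6 and Itgb6 did, had a better chance to be called. The counts and medians therefore describe the members that were fitted and not the whole set. At an unadjusted p under 0.05 there were 26 of the 41 members, against 18.0% of all genes, and 1 of the 26, Lamb3, had the lower level in KO livers. DESeq2 called 1 member lower, again Lamb3, and limma-voom called 0 lower. In 19 of the 41 every library labelled KO lay above every library labelled WT, which was so for 6.19% of all genes, and in 0 of the 41 every KO library lay below, against 5.01% of all genes.

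**Figure D1:**
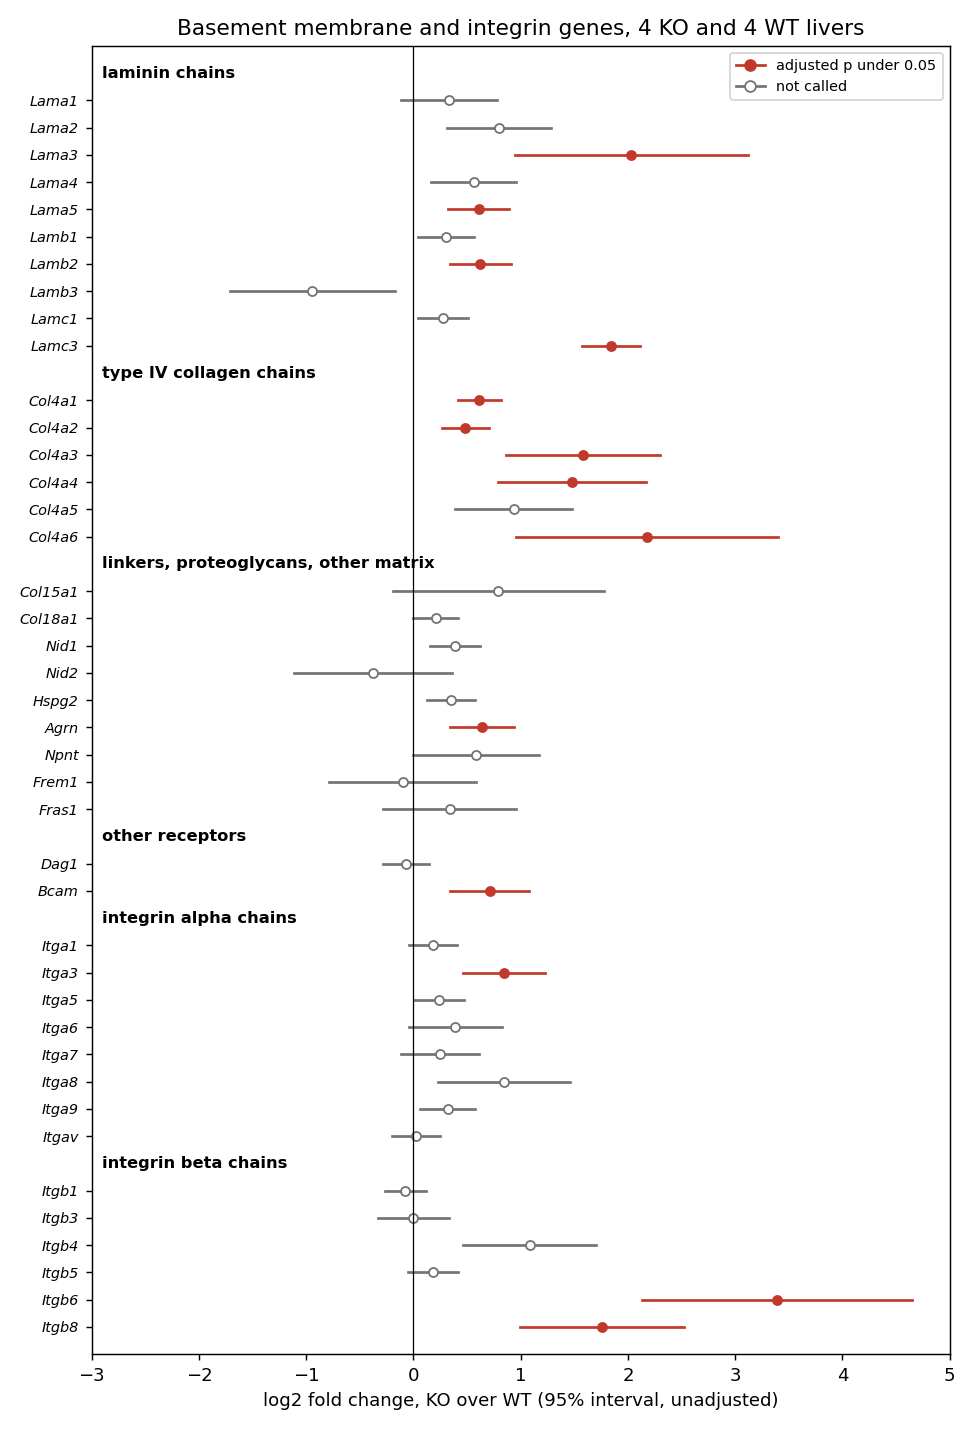
Log2 fold change of each fitted member, KO over WT (x axis), with the unadjusted 95% interval as a line, grouped by role down the page; filled red points passed an adjusted p of 0.05 and open grey points did not. The type IV collagen chains all lie right of 0, and Itgb6 at 3.39 has the highest value, whereas Dag1 and Itgb1 sit at −0.07.

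The laminin gamma chain gene Lamc3 had the lowest adjusted p of the members. It was counted at 34.3, 28.2, 34.4 and 33.6 CPM in KO livers, against 8.38, 7.64, 10.6 and 9.76 CPM in WT livers (chromosome 2, 31887291 to 31946539, plus strand, mm10). No KO liver came near the WT range, and the 4 WT livers lay close together. Lamc3 rose 3.59-fold, with a 95% interval from 2.97 to 4.33, by edgeR's quasi-likelihood test (log2 fold change 1.84, SE 0.13, adjusted p = 7.75e-06). The log2 fold change was 1.87 in the 4-digit series and 1.68 in the 98-to-100 series. It was called in 8 of the 8 fits that leave out 1 library.

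Lamc1, the gamma chain gene of most laminins, was at 30.2, 30.8, 27.7 and 25.6 CPM in KO livers, against 23.5, 27.2, 22.5 and 20.9 CPM in WT livers, and was not called (log2 fold change 0.28, SE 0.11, adjusted p = 0.184). The order of these gamma chains per exon length differed between the groups. Per kilobase of exon, Lamc3 was at 5.36 ± 0.489 CPM per kb in KO livers and 1.49 ± 0.217 CPM per kb in WT livers (SD, n = 4 each), and Lamc1 at 3.45 ± 0.285 CPM per kb in KO livers and 2.84 ± 0.324 CPM per kb in WT livers. The ratio of Lamc3 to Lamc1 was 1.54, 1.24, 1.69 and 1.78 in KO livers, against 0.484, 0.382, 0.639 and 0.634 in WT livers (exact two-sided permutation p = 0.0286, the smallest that 4 against 4 allows, and 0.0572 adjusted over the 4 ratios computed). It was above 1 in every library labelled KO and below 1 in every library labelled WT. The ratio was chosen after the values were seen, so its p-value adds no support. The 4 ratios were this one, Col4a1 to Col4a2, Col4a3 to Col4a4 and Itgb8 to Itgb1.

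**Figure D2:**
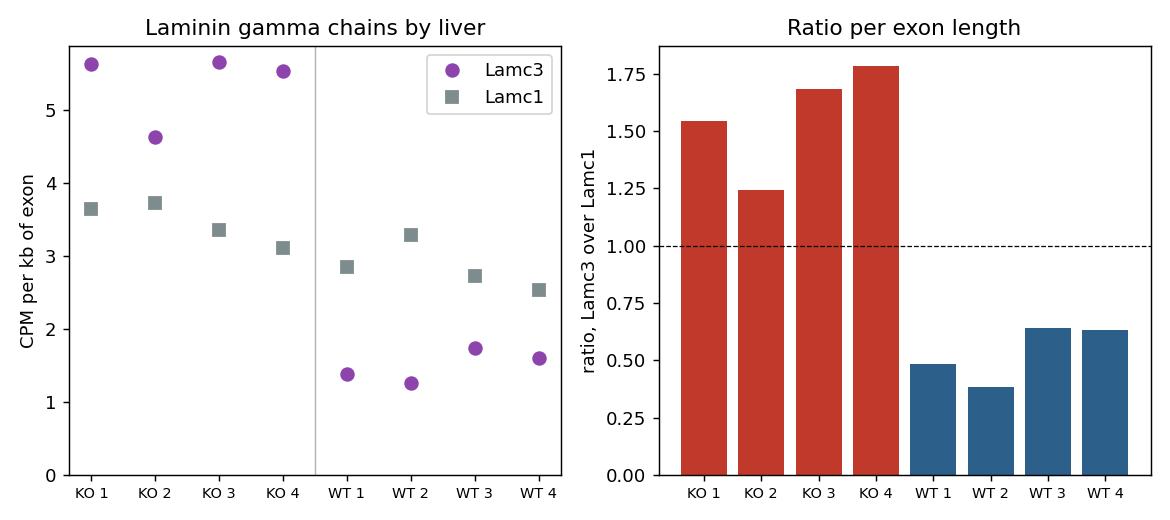
Left, CPM per kilobase of exon of Lamc3 (circles) and Lamc1 (squares) in each library, KO replicates 1 to 4 and then WT replicates 1 to 4; right, the ratio of Lamc3 to Lamc1 in the same libraries, with a dashed line at 1. The ratio lies between 1.24 and 1.78 in KO livers and between 0.382 and 0.639 in WT livers.

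Among the alpha chains Lama5 and Lama3 rose and Lama1, Lama2 and Lama4 were not called. Lama5, a chain of vessel and epithelial basement membranes, was at 18.2, 12.5, 15.5 and 17.1 CPM in KO livers, against 10.6, 9.74, 10.5 and 10.6 CPM in WT livers. The groups did not overlap, and KO replicate 2 was nearest to the WT range (log2 fold change 0.61, SE 0.13, adjusted p = 0.0223; 0.58 in the 4-digit series and 0.62 in the 98-to-100 series). Lama3, whose product joins that of Lamb3 in a laminin under many epithelia, was at 1.97, 2.70, 4.12 and 3.61 CPM in KO livers, against 0.292, 0.74, 1.65 and 0.222 CPM in WT livers. It passed the filter on low counts through its level in KO livers. The groups did not overlap, but the lowest KO liver stood next to WT replicate 3 (log2 fold change 2.03, SE 0.50, adjusted p = 0.0447; 2.45 in the 4-digit series and 1.22 in the 98-to-100 series). Lama2, a chain of muscle and mesenchymal basement membranes, was at 7.28, 5.30, 8.59 and 11.5 CPM in KO livers, against 5.36, 4.27, 5.42 and 3.66 CPM in WT livers, and the groups overlapped (log2 fold change 0.80, SE 0.23, adjusted p = 0.0667). Lama4, a chain of vessel walls, had a log2 fold change of 0.56 (adjusted p = 0.113), and Lama1 one of 0.33 (adjusted p = 0.445).

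Of the beta chains Lamb2 rose and Lamb1 and Lamb3 were not called. Lamb2 was at 15.8, 13.7, 17.2 and 16.1 CPM in KO livers, against 8.89, 9.25, 11.7 and 10.9 CPM in WT livers. Every KO liver was above every WT liver (log2 fold change 0.62, SE 0.13, adjusted p = 0.0187; 0.61 in the 4-digit series and 0.50 in the 98-to-100 series). Lamb1, the beta chain gene of most early laminins, was at 17.7, 17.7, 19.4 and 19.1 CPM in KO livers, against 12.03, 15.2, 16.4 and 16.2 CPM in WT livers (log2 fold change 0.30, SE 0.12, adjusted p = 0.199). Lamb3 was the laminin gene with the lower mean in KO livers, at 4.34, 4.30, 2.87 and 6.69 CPM in KO livers, against 5.10, 8.34, 14.7 and 6.65 CPM in WT livers. The groups overlapped, and WT replicate 3 was far above the other WT livers (log2 fold change −0.94, SE 0.34, adjusted p = 0.181). Lama3, whose product joins that of Lamb3, was called higher. DESeq2 called Lamb3 lower, and so did the edgeR fit of the 98-to-100 series, whose WT arm is WT replicate 3 alone. The range of its row overlaps that of Hsd11b1, an abundant hepatocyte gene on the opposite strand, with 0 exon bases in common. Hsd11b1 averaged 585 CPM in KO livers and 768 CPM in WT livers (log2 fold change −0.39, adjusted p = 0.0689), and its part in the Lamb3 values was not tested.

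All 6 type IV collagen genes were higher in every KO liver than in every WT liver, and 5 of the 6 passed the test. Col4a1 and Col4a2, whose products form the trimer of nearly all basement membranes, were the most abundant of the 6 per exon length. Col4a1 was at 72.2, 62.3, 64.2 and 68.4 CPM in KO livers, against 43.2, 38.7, 44.9 and 47.6 CPM in WT livers (chromosome 8, 11198423 to 11312826, minus strand). It rose 1.53-fold, with a 95% interval from 1.34 to 1.76 (log2 fold change 0.62, SE 0.09, adjusted p = 0.00222; 0.64 in the 4-digit series and 0.56 in the 98-to-100 series). Col4a2 was at 37.8, 38.8, 33.4 and 43.1 CPM in KO livers, against 28.6, 24.99, 29.3 and 26.5 CPM in WT livers. The groups did not overlap here either (log2 fold change 0.48, SE 0.10, adjusted p = 0.0178; 0.52 in the 4-digit series and 0.38 in the 98-to-100 series). The ratio of Col4a1 to Col4a2 per exon length was 1.71 ± 0.18 in KO livers and 1.55 ± 0.13 in WT livers (SD, n = 4 each, exact permutation p = 0.171, adjusted 0.228).

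Col4a3 and Col4a4, whose products form a trimer with that of Col4a5 and are best known from the glomerulus of the kidney, were scarce, and both rose. Col4a3 was at 2.98, 1.42, 3.11 and 2.56 CPM in KO livers, against 1.09, 0.863, 0.793 and 0.555 CPM in WT livers (log2 fold change 1.58, SE 0.34, adjusted p = 0.0182; 1.37 in the 4-digit series and 1.83 in the 98-to-100 series). Col4a4 was at 2.63, 1.53, 1.94 and 2.33 CPM in KO livers, against 0.729, 1.03, 0.595 and 0.665 CPM in WT livers (log2 fold change 1.48, SE 0.32, adjusted p = 0.0221; 1.35 in the 4-digit series and 1.83 in the 98-to-100 series). For both, KO replicate 2 was the lowest KO liver and still above all WT livers. Their ratio per exon length was 1.27 ± 0.31 in KO livers and 1.20 ± 0.36 in WT livers (SD, n = 4 each, exact permutation p = 0.771, adjusted 0.771). Of the X-linked pair, whose ratio was not computed, only Col4a6 was called. Col4a5 was at 6.50, 5.17, 7.26 and 5.94 CPM in KO livers, against 2.08, 3.41, 5.02 and 2.38 CPM in WT livers and narrowly missed the threshold (log2 fold change 0.93, SE 0.25, adjusted p = 0.0568; 1.15 in the 4-digit series and 0.39 in the 98-to-100 series). Col4a6 had 16, 38, 21 and 39 reads in KO livers and 8, 1, 13 and 2 reads in WT livers. It passed the filter on low counts through its level in KO livers, and the stricter filter left it out. The groups did not overlap, and it was called by a narrow margin (log2 fold change 2.18, SE 0.57, adjusted p = 0.0496; 2.62 in the 4-digit series and 1.40 in the 98-to-100 series).

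**Figure D3:**
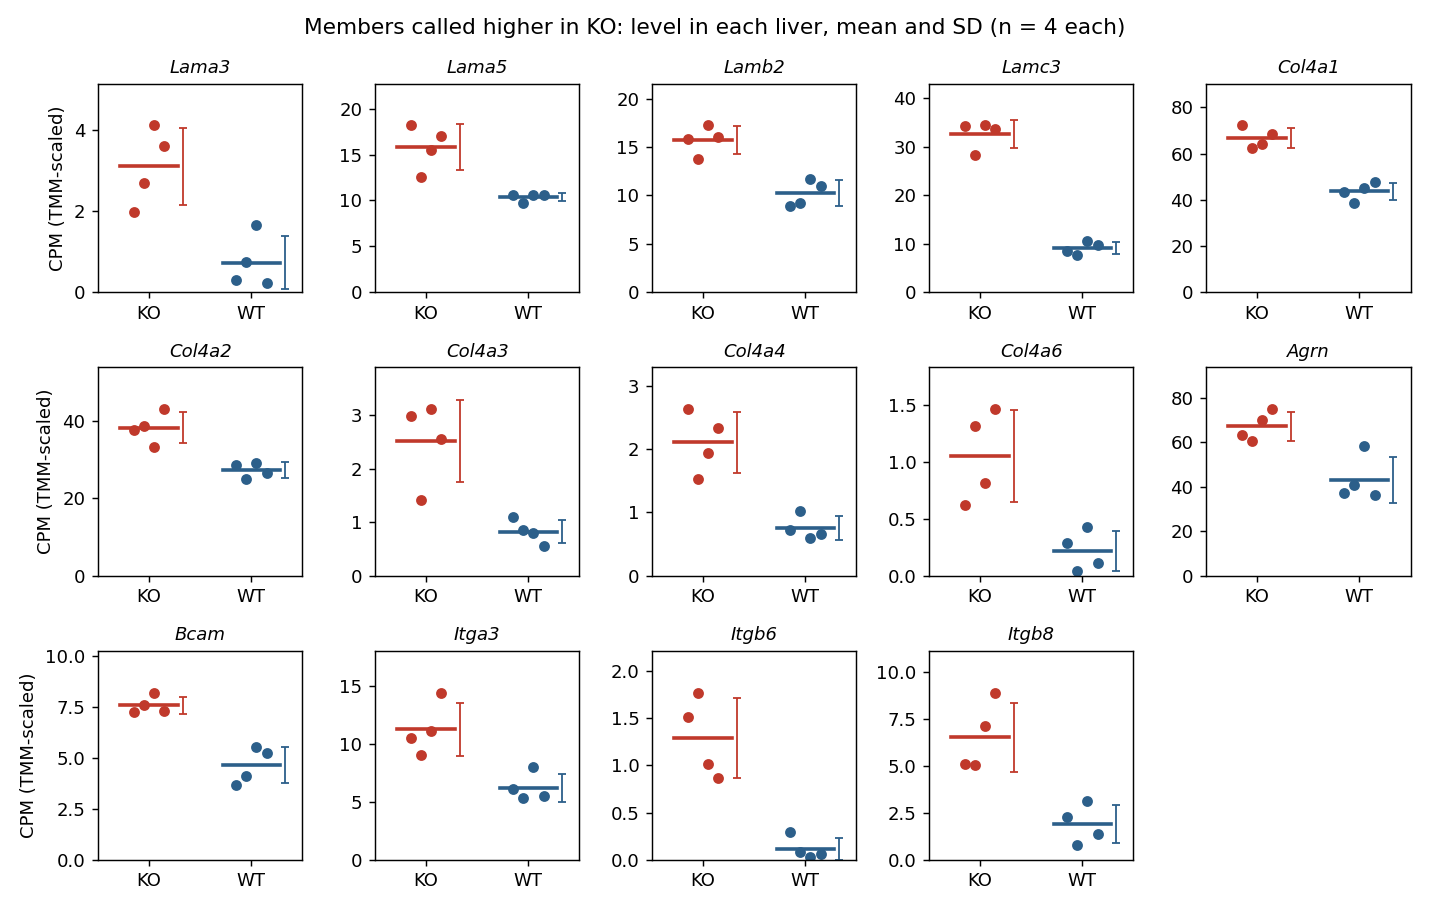
Level in CPM (y axis, from 0) of the 14 members called higher, in each KO liver (red, left) and each WT liver (blue, right), with the mean as a bar and the SD beside it. In all 14 panels the lowest KO liver is above the highest WT liver, widely for Lamc3 and by a small step for Lama3 and Agrn.

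Among the linkers and proteoglycans Agrn rose and the other 8 fitted genes were not called. Agrn encodes agrin, a heparan sulphate proteoglycan that binds laminin and dystroglycan, and was at 63.2, 60.9, 70.3 and 75.01 CPM in KO livers, against 37.3, 40.6, 58.3 and 36.4 CPM in WT livers. WT replicate 3 came close to the KO range, and the other 3 WT livers lay well below it (log2 fold change 0.64, SE 0.14, adjusted p = 0.0249; 0.71 in the 4-digit series and 0.31 in the 98-to-100 series). Hspg2 was at 64.2, 56.2, 55.8 and 50.6 CPM in KO livers, against 43.8, 46.1, 49.6 and 37.99 CPM in WT livers. The groups did not overlap, but the test did not call it (log2 fold change 0.35, SE 0.10, adjusted p = 0.0753). Nid1, the more abundant nidogen gene, was at 59.4, 44.6, 54.9 and 58.8 CPM in KO livers, against 36.01, 44.7, 44.9 and 40.9 CPM in WT livers, with KO replicate 2 inside the WT range (log2 fold change 0.39, SE 0.11, adjusted p = 0.0662). Nid2 had a log2 fold change of −0.38 (adjusted p = 0.607), with WT livers spread from 5.09 to 14.5 CPM.

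Col18a1, whose product carries endostatin at its end, dwarfed every other ligand at 192 ± 8.02 CPM per kb in KO livers and 166 ± 6.85 CPM per kb in WT livers (SD, n = 4 each), as background a collagen gene that hepatocytes themselves express. It was at 1373, 1266, 1395 and 1345 CPM in KO livers, against 1112, 1217, 1136 and 1189.8 CPM in WT livers. Every KO liver was above every WT liver, yet the difference was small and not called (log2 fold change 0.21, SE 0.10, adjusted p = 0.285). Most of the summed CPM of the ligands came from this 1 gene. Col15a1, its relative in vessel walls, ranged from 2.70 to 13.4 CPM in KO livers and from 3.16 to 6.21 CPM in WT livers (adjusted p = 0.383). Npnt, encoding nephronectin, a ligand of the integrin that Itga8 and Itgb1 form, had a log2 fold change of 0.58 (adjusted p = 0.279). Of the Fraser complex genes, which anchor epithelia to dermis and other mesenchyme, Fras1 and Frem1 had log2 fold changes of 0.34 and −0.10 (adjusted p = 0.591 and 0.915). Frem2, with at most 26 reads in a library, was not fitted.

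The receptors that rose were the integrin chains Itgb6, Itgb8 and Itga3, and Bcam, and the most abundant chains were not called. Itga6 and Itgb4, lower than Itga3 per exon length in both groups, were not called either. Itgb6 encodes a beta chain of epithelia that pairs with the product of Itgav and can release active TGF-beta from its latent form. It had 39, 51, 26 and 23 reads in KO livers, or 1.51, 1.77, 1.01 and 0.865 CPM, against 8, 2, 1 and 1 reads in WT livers, or 0.292, 0.0822, 0.033 and 0.0555 CPM. The WT values rest on very few reads, and the fitted rise was 10.5-fold, with a 95% interval from 4.37 to 25.02 (log2 fold change 3.39, SE 0.59, adjusted p = 0.00587; 3.38 in the 4-digit series and 4.64 in the 98-to-100 series). Itgb6 passed the filter on low counts through its level in KO livers, and the stricter filter left it out.

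Itgb8 encodes another partner of the Itgav product, also able to release TGF-beta. It was at 5.07, 5.03, 7.11 and 8.87 CPM in KO livers, against 2.30, 0.781, 3.11 and 1.39 CPM in WT livers. The groups did not overlap, and WT replicate 3 was the highest WT liver (log2 fold change 1.76, SE 0.35, adjusted p = 0.0181; 1.75 in the 4-digit series and 1.36 in the 98-to-100 series). Itgav itself was at 31.4, 36.4, 39.5 and 34.9 CPM in KO livers, against 38.3, 37.4, 33.9 and 30.3 CPM in WT livers, with wide overlap and a 95% interval of the fold from 0.870 to 1.19 (log2 fold change 0.02, SE 0.10, adjusted p = 0.941). Its other partners did not pass the test either: Itgb5 had a log2 fold change of 0.18 (adjusted p = 0.412) and Itgb3 one of 0.00 (adjusted p = 0.9998).

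Among the laminin receptors Itga3 and Bcam rose. Itga3, an alpha chain of epithelial laminin receptors, was at 10.5, 9.01, 11.1 and 14.4 CPM in KO livers, against 6.05, 5.34, 7.96 and 5.49 CPM in WT livers. All KO livers were above all WT livers (log2 fold change 0.85, SE 0.18, adjusted p = 0.0179; 0.79 in the 4-digit series and 0.67 in the 98-to-100 series). Bcam, a membrane protein of the immunoglobulin superfamily that binds the Lama5 product, was at 7.24, 7.59, 8.20 and 7.33 CPM in KO livers, against 3.68, 4.11, 5.52 and 5.27 CPM in WT livers. Again the groups did not overlap (log2 fold change 0.71, SE 0.17, adjusted p = 0.0352; 0.78 in the 4-digit series and 0.49 in the 98-to-100 series). Itgb4, which joins Itga6 in the hemidesmosomes of epithelia, was at 1.70, 2.77, 3.19 and 2.18 CPM in KO livers, against 1.17, 0.986, 1.35 and 1.11 CPM in WT livers and missed the threshold although the groups were apart (log2 fold change 1.08, SE 0.29, adjusted p = 0.0523). Itga6 and Itga7, also alpha chains of laminin receptors, had log2 fold changes of 0.39 and 0.25 (adjusted p = 0.328 and 0.478). Dag1 was at 156, 143, 143 and 146 CPM in KO livers, against 158, 178, 150.4 and 131 CPM in WT livers (log2 fold change −0.07, SE 0.10, adjusted p = 0.776).

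Itgb1, the beta chain shared by most of these receptors, was the most abundant receptor gene per exon length and showed no called difference. It was at 179, 196, 204 and 205 CPM in KO livers, against 202, 217, 215 and 193 CPM in WT livers. The fold was 0.95 with a 95% interval from 0.83 to 1.09 (adjusted p = 0.727). Per kilobase of exon it stood at 48.1 ± 2.90 CPM per kb in KO livers and 50.6 ± 2.80 CPM per kb in WT livers, followed by Dag1 at 23.1 and 24.3, Itgb5 at 22.2 and 19.6 and Itga5, a fibronectin receptor chain, at 13.5 and 11.5 CPM per kb (means of KO and WT livers, n = 4 each). Dag1 and Itgb5 differed by less than the SD of Itgb5 in KO livers, and by more than either SD in WT livers. The collagen receptor chain Itga1 had a log2 fold change of 0.18 and Itga9, which binds tenascin and other ligands, one of 0.32 (adjusted p = 0.394 and 0.164). Itga8, a chain of mesenchymal cells, was at 12.7, 11.9, 20.9 and 23.01 CPM in KO livers, against 7.47, 8.71, 14.1 and 7.60 CPM in WT livers, with WT replicate 3 inside the KO range (log2 fold change 0.84, SE 0.27, adjusted p = 0.135). Itga2 had at most 9 reads in a library and was not fitted. The summed CPM of the 9 integrin alpha chains, relative to the WT mean, lay between 1.10 and 1.29 in KO livers and between 0.983 and 1.03 in WT livers, without overlap. The sums of the 6 beta chains lay between 0.965 and 1.06 in KO livers and between 0.967 and 1.04 in WT livers. Most of each beta sum came from Itgb1. The called beta chains Itgb6 and Itgb8 averaged only 1.29 and 6.52 CPM in KO livers, so their rise hardly shows in these sums.

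Many of the calls depended on single libraries. The number of members called was 9, 13, 4 and 3 without KO replicate 1, 2, 3 and 4, and 8, 5, 20 and 9 without WT replicate 1, 2, 3 and 4. Without WT replicate 3 the 20 held all 14 and added Lama2, Col4a5, Nid1, Hspg2, Itga8 and Itgb4. The share of all genes called moved with it, at 8.32% without WT replicate 3 and 1.49% without WT replicate 2. Lamc3 and Col4a1 were called in all 8 of these fits, as was Itgb6, which was fitted only through its KO reads. Col4a2 was lost without KO replicate 4 or WT replicate 2, Itga3 without KO replicate 3 or 4 or WT replicate 2, and Itgb8 without KO replicate 3 or 4 or WT replicate 4. Lama5, Col4a3 and Lamb2 were called in 4 of the 8, Agrn and Col4a4 in 3, Bcam in 2, and Lama3 and Col4a6 in 1, the fit without WT replicate 3. The highest adjusted p among these fits was 0.154, for Col4a6. Since the groups of all 14 do not overlap, leaving out a library cannot turn their direction.

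**Figure D4:**
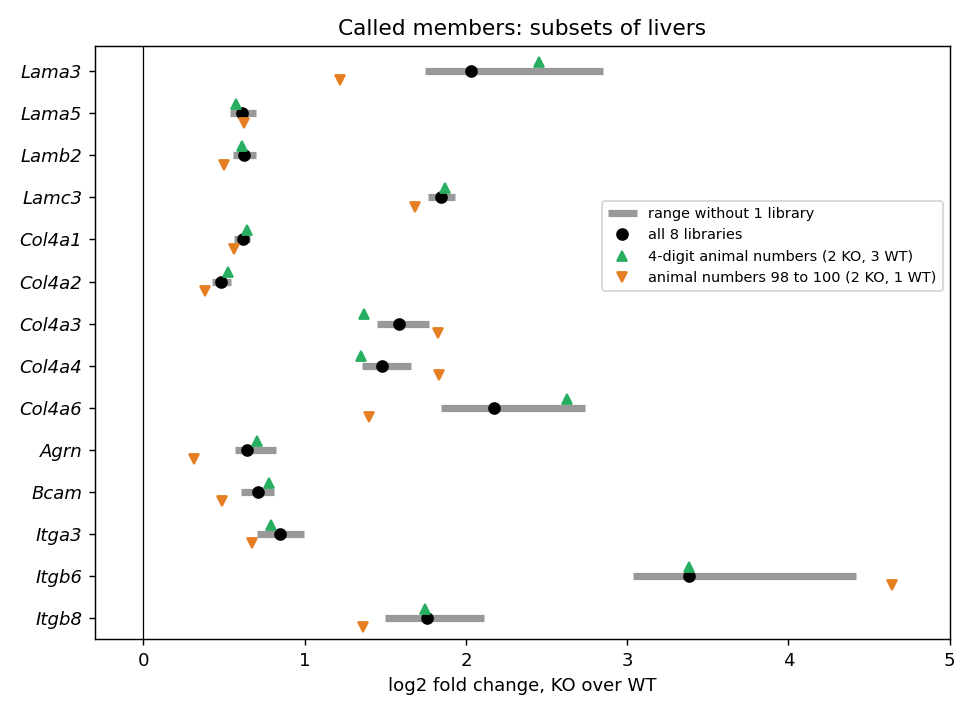
Log2 fold change, KO over WT (x axis), of the 14 called members in all 8 libraries (black), in the animals with 4-digit numbers (green, 2 KO and 3 WT), in those numbered 98 to 100 (orange, 2 KO and 1 WT) and the range when 1 library is left out (grey bar). Lamc3 and Col4a1 move little, and Itgb6, Lama3 and Col4a6 move most.

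Markers of bile duct cells rose in the same livers. Of all genes tested, edgeR called 3.69%, DESeq2 7.57% and limma-voom 3.45%, and edgeR without WT replicate 3 called 8.32%. Of 12 bile duct markers 10 rose and 0 fell (edgeR adjusted p under 0.05; 9 by limma-voom and 11 by DESeq2, with 0 lower by either). Without WT replicate 3 edgeR called 9 of them. Their summed level was 141 to 178 CPM in KO livers, against 74.9 to 95.4 CPM in WT livers. Epcam, a surface protein of these cells, was at 5.88, 7.84, 9.13 and 9.17 CPM in KO livers, against 1.82, 1.23, 3.04 and 1.55 CPM in WT livers, and Krt19, a keratin of theirs, at 6.04, 3.61, 6.68 and 4.77 CPM in KO livers, against 1.39, 0.863, 2.74 and 0.61 CPM in WT livers. None of the 12 was at 0 in any library. Markers of portal fibroblasts and smooth muscle summed to 28.8 to 35.04 CPM in KO livers, against 19.2 to 21.9 CPM in WT livers, with 1 of 8 fitted markers called, Eln (3 by DESeq2, 1 by limma-voom and 2 by edgeR without WT replicate 3). Cnn1 and Actg2 were near 0. Stellate cell markers summed to 398 to 449 CPM in KO livers, against 374 to 404 CPM in WT livers, with Cygb and Hgf called among 10 (4 by DESeq2, 2 by limma-voom and 2 by edgeR without WT replicate 3). Mesothelial markers were low, with sums of 5.30 to 9.83 CPM in KO livers and at most 4.99 CPM in WT livers, without overlap. Gpm6a was called among 5 fitted mesothelial markers. The part of these cell types in the differences of the members was not tested.

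Endothelial markers were not called, in a list that does not separate vessels from sinusoids, which lack a continuous basement membrane. None of 12 was called by edgeR, DESeq2 or limma-voom, and 3 had an unadjusted p under 0.05, against 18.0% of all genes tested. Their sum was 507 to 570 CPM in KO livers, against 474 to 531 CPM in WT livers. Macrophage markers were called in 0 of 10 by the same tools, with 0 at an unadjusted p under 0.05. Hepatocyte markers were called in 0 of 10, again by all 3 tools, with 1 at an unadjusted p under 0.05. Without WT replicate 3 edgeR called 1 hepatocyte marker lower and 0 endothelial or macrophage markers. As edgeR called 3.69% of all genes tested, 0 calls in lists this short is near that share.

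**Figure D5:**
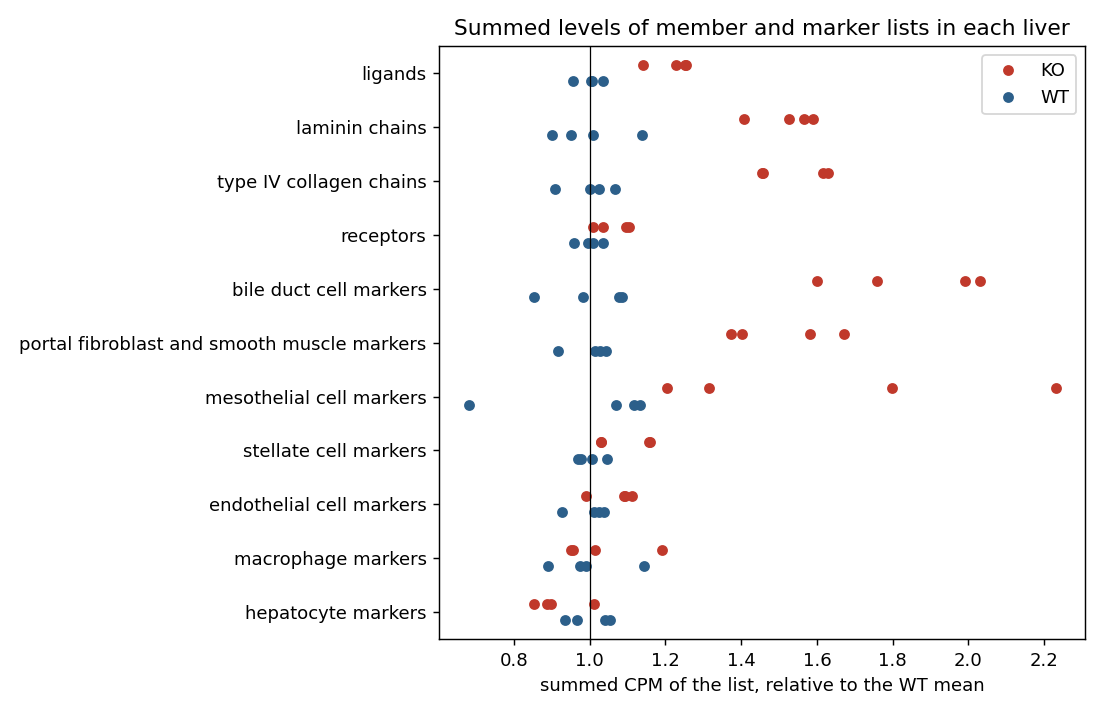
Summed CPM of each list relative to its mean in WT livers (x axis) in each KO liver (red, upper points) and each WT liver (blue, lower points). Laminin chains lie between 1.41 and 1.59 in KO livers and between 0.902 and 1.14 in WT livers, type IV collagen chains between 1.46 and 1.63 and between 0.909 and 1.07, and bile duct markers between 1.60 and 2.03 and between 0.853 and 1.09, whereas the sums of all receptors overlap. Most of the receptor sum came from Itgb1 and Dag1, which were not called.

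Other genes of the pathway gave 8 calls among 69 fitted genes of 5 lists, all higher (11.6%, against 3.69% of all genes tested by edgeR). Of 15 fitted basement membrane components outside the set, 4 rose and 0 fell. Among them were Sparc, a collagen-binding matrix protein (log2 fold change 0.49, SE 0.08, adjusted p = 0.00549), Smoc2, a matrix protein related to it (log2 fold change 0.90, SE 0.18, adjusted p = 0.0115), and Egflam, named after its values were seen and encoding pikachurin, a dystroglycan ligand (log2 fold change 1.77, SE 0.36, adjusted p = 0.0143). Smoc2 averaged 17.3 ± 3.26 CPM in KO livers and 9.24 ± 2.18 CPM in WT livers, and Egflam 2.64 ± 0.309 CPM in KO livers and 0.759 ± 0.445 CPM in WT livers (SD, n = 4 each). Of 10 non-integrin matrix receptors Ddr1 and Ddr2, receptor kinases for collagen, rose (log2 fold change 1.40, SE 0.32, adjusted p = 0.0293 and log2 fold change 0.51, SE 0.13, adjusted p = 0.0467), and 0 fell. That count was 0 without KO replicate 1, 3 or 4 or WT replicate 2 or 4, 1 without WT replicate 1, 1 by limma-voom and 1 with the replicate number as a block.

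Of 14 fitted enzymes and chaperones of collagen folding and crosslinking 2 rose, Loxl1, a crosslinking oxidase (log2 fold change 1.40, SE 0.32, adjusted p = 0.0277), and Serpinh1, a collagen chaperone (log2 fold change 0.68, SE 0.18, adjusted p = 0.048), and 0 fell. This count was 0 by limma-voom, 0 without KO replicate 3 or 4 or WT replicate 1, 2 or 4, and 1 without KO replicate 2. All 14 had a log2 fold change above 0, against 49.2% of all genes. Of 20 adaptors that link integrins to actin, such as talins, kindlins and parvins, edgeR called 0, with 5 at an unadjusted p under 0.05, limma-voom 0 and DESeq2 1 in each direction. Of 10 other integrin chains, mostly of leukocytes and platelets, edgeR, DESeq2 and limma-voom each called 0, with 2 at an unadjusted p under 0.05. Over all genes tested, 18.0% had an unadjusted p under 0.05 and edgeR called 3.69%.

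AU-rich letters, the kind HuR binds, were counted in the 3′ UTR of 1 protein-coding transcript per gene (GENCODE M21, the longest coding sequence). All 14 called members had a 3′ UTR there, and 8 of them (57.1%) held the pentamer ATTTA, as did 21 of the 27 members not called (77.8%) and 65.8% of 12752 tested genes. The heptamer TATTTAT, which contains the pentamer, was in 4 of the 14 (28.6%), 11 of the 27 (40.7%) and 27.4% of all. Lamc3 has a 3′ UTR of 1125 bases with 0 pentamers, Col4a1 one of 1378 bases with 1, and Itgb8 one of 5095 bases with 20. These counts describe letters and not binding, and were not tested.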

How the data were processed

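Liver RNA from 4 KO and 4 WT mice was sequenced, and the authors deposited a table of read counts per gene, made with GSNAP against mm10 and featureCounts 1.5.1 with Ensembl annotation 81, after bcl2fastq 2.19.1, per the file headers and the submitters' processing notes. The header shows reverse-stranded counting at a minimum mapping quality of 1, with no option for multi-mapping or multi-overlapping reads, so reads shared by close copies are lost. Of 45706 gene rows, 45143 carried a symbol. The 92 spike-in rows held 0 reads and were left out. Nothing in the labels says how the mice relate, so p-values measure the spread between these samples.

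Counts were fitted with edgeR 4.0.16 in R 4.3.3: TMM scaling, filterByExpr with a minimum count of 10, and a robust quasi-likelihood test of KO over WT, with Benjamini-Hochberg adjustment over 14645 genes. CPM are TMM-scaled, and CPM per kb divides them by the table's exon length. The fit was tested on simulated counts. Alternatives used other scaling, filters, DESeq2 1.42.0, limma-voom (limma 3.58.1), the number series, the replicate number, and fits without each library. Members and lists were chosen with earlier results of these data known. Named genes were the called members, the 3 most abundant and the 4 of smallest p among uncalled ligands and receptors, and up to 3 called genes per pathway list; values of Lamb1, Lamb3, Lamc1 and Itgav were added after they were seen. Protein sequences were not used here. Of the marker genes, Muc16 was not matched. The values of 1 called gene of the pathway lists are not reported here.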

Additional observations from a re-analysis of the deposited data

Results flagged for a closer look

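In 4 of 84 groups of 4 livers, 1 member value lay apart from the other 3 by Dixon's criterion, and chance alone gives about 1 in 20. KO replicate 2 had the lowest Lamc3 level at 28.19 CPM, with the other KO livers between 33.65 and 34.42 CPM. WT replicate 2 had the lowest Lama5 level at 9.741 CPM, with the other WT livers between 10.54 and 10.61 CPM. KO replicate 4 had the lowest Itga5 level at 52.79 CPM, with the other KO livers between 60.64 and 61.97 CPM. KO replicate 3 had the highest Frem2 level at 1.01 CPM, with the other KO livers between 0.2709 and 0.3384 CPM.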

How the results depend on the processing

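No member changed direction with a call, and of 736 member values under 18 alternatives 634 kept their side of the threshold, 67 lost the call and 35 gained it. Members called numbered 13 with RLE scaling, 15 with upper-quartile scaling, 19 without the filter, 12 with the stricter filter, 20 by DESeq2, 13 by limma-voom and 17 with the number series as a term. Within the 4-digit series, members called higher numbered 9, receptors 2, pathway genes 4 and all genes 215. DESeq2 called 613 genes higher and 495 lower, with 1 ligand, and so 1 member, lower and 1 pathway gene lower. Genes called lower numbered 328 without the filter, 308 with the series term (1 pathway gene) and 528 within the 98-to-100 series (1 ligand, and so 1 member). There the median log2 fold change was 0.3851 for ligands and 0.4192 for receptors. Pathway genes called higher numbered 5 by limma-voom. Leaving out 1 library gave 151 to 710 genes higher, 71 to 534 lower, 3 to 20 members, 2 to 14 ligands and 1 to 6 receptors higher, and 3 to 9 pathway genes higher and 0 to 1 lower; the highest counts came without WT replicate 3. The cause of these shifts was not tested. The replicate numbers did not pair the samples: deviations of same-numbered livers correlated at 0.0255, 0.0251, 0.122 and −0.147. With the replicate block, 15 members were called. Itgb6 and Col4a6 rest on few reads in WT livers, which limits their folds.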
